A study of Canis lupus familiaris with 7 samples.

Results

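The solute carriers are the membrane proteins that move sugars, amino acids, ions, metals, vitamins and nucleotides into, out of and within cells. Their genes are numbered by family, so that SLC7 holds cationic amino acid carriers and SLC39 holds zinc importers. The members described here are the probes, other than array controls, whose gene name on the array follows the pattern SLC, a number, A and a number. One gene with such a name is not reported here. The rule gave 353 probes of 255 genes, out of 43603 probes and 13789 named genes on the array, in 47 numbered families. A probe was kept where its spot was well above background on at least 3 of the 7 arrays. With this filter 207 of the 255 genes, with 283 probes, were tested beside 11595 genes in all. A gene was read at the kept probe with the highest mean over the 7 tumours, and every value below is a log2 intensity after normalization unless another scale is named.

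RNA came from primary osteosarcomas of 7 dogs seen at veterinary clinics. Osteosarcoma is the main spontaneous bone cancer of this species. The RNA was hybridised in 1 colour, 1 array per tumour. The labels give 4 tumours as DLG2 deleted and 3 as DLG2 wild type. DLG2 encodes a membrane-associated scaffold protein, and the study compared the groups to ask what its loss changes in these tumours. The DLG2-deleted tumours 1 to 4 came from dogs of 8, 9, 6 and 7 years with the sex labels MC, FS, MC and FS. The DLG2 wild-type tumours 1 to 3 came from dogs of 12, 10 and 8 years with the sex labels FS, FS and MC. Each tumour is from a separate dog, the groups differ in more than DLG2, and the deletion was found in the tumours and not introduced. Tumour numbers name a tumour only.

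Carriers in bone tumours fall into a few working groups. Amino acid and sugar carriers feed growth, and the proton, lactate and bicarbonate carriers keep the pH of a glycolytic cell. Phosphate carriers are known in bone for mineral formation, and osteoclasts use bicarbonate exchange to balance the acid they secrete. Iron and zinc carriers are prominent in macrophages and in many secretory cells. In pieces of tumour such as these, fewer cells of a type and less RNA per cell cannot be told apart.

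Each array had 30280 to 34538 probes well above background, and no spot was saturated. The number of arrays limits the precision. DLG2 wild-type tumours 1 and 2 were the pair most alike (Pearson r = 0.987 over kept probes, a description across probes). The single DLG2 probe read 10.38 to 11.44 in the DLG2-deleted and 10.91 to 12.03 in the DLG2 wild-type tumours, and these ranges overlapped. The DLG2 probe is listed at chr21:18338004-18338063 (canFam2). This position lies outside the recurrent focal deletion that the paper reports for dogs, if both use the same genome build. How far the deletion reaches in each of these tumours was not analysed here. Of the osteoblast markers, 5 of 9 had a kept probe, with ALPL at 12.54 to 16.55 and COL1A1 at 14.08 to 15.95 over the 7 tumours. IBSP, SP7, SPP1 and DMP1 had no kept probe under these names. Fat, cartilage and osteoclast markers varied strongly between tumours. DLG2-deleted tumour 4 stood 3.12 above the genes' means in the median adipocyte marker, and DLG2 wild-type tumour 3 stood 2.77 above them in the median osteoclast marker. The adipocyte marker LEP went the other way and was lowest in DLG2-deleted tumour 4. For 21 of the 39 named genes whose difference kept its sign with any tumour left out, leaving out 1 tumour moved it by over 1.5 times.

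No solute carrier was called different between DLG2-deleted and DLG2 wild-type tumours at an unadjusted p under 0.05 with an adjusted p under 0.1. The background was the same, with 0% of the 11595 genes called. The lowest adjusted p among the carriers was 0.5005 in limma with Benjamini-Hochberg adjustment over all 32309 kept probes, against 0.1166 over all of them. At an unadjusted p under 0.05 there were 12 carriers in limma and 14 in the methods' t-test. The 12 are 5.8% of the 207 carriers, against 7.66% of all genes. Among the 12, SLC16A12 passed the filter only through the group in which it was bright, so that it had to differ, and 11 are left without it, 6 of them lower. Of the 12, 5 were higher in DLG2-deleted tumours (2.42%, background 3.73%) and 7 were lower (3.38%, background 3.93%). The 14 by the methods' t-test are 6.76%, against 6.6% of all genes. The order of the 2 shares depended on the setting, with 9.18% against 6.36% for the processed intensity at 75th percentile scaling and 9.66% against 14.9% with array weights.

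The direction was balanced as well. Across the carriers 102 lay above 0 and 105 below, so that 49.3% were higher in DLG2-deleted tumours, against 52.8% of all genes. The median log2 difference, DLG2-deleted minus DLG2 wild-type, was -0.0072 over the carriers and 0.014 over all genes. Scaling each array to its 75th percentile after the same background correction moved the median of all genes to 0.23, and that of the carriers to 0.41 with 164 of 207 above 0. The groups did not overlap in 15 carriers, or 7.25%, against 7.88% of all genes. Of those 15, 7 were higher in DLG2-deleted tumours (3.38%, background 4.31%) and 8 were lower (3.86%, background 3.57%). The 8 include SLC16A12, which passed the filter only through the DLG2 wild-type group, so that its direction was set in advance. This holds too for SLC17A7 and SLC29A4 among the 105 below 0. The shares of all genes were not corrected for genes of this kind. The median SD of a carrier over the 7 tumours was 0.23, against 0.29 for all genes.

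**Figure D1:**
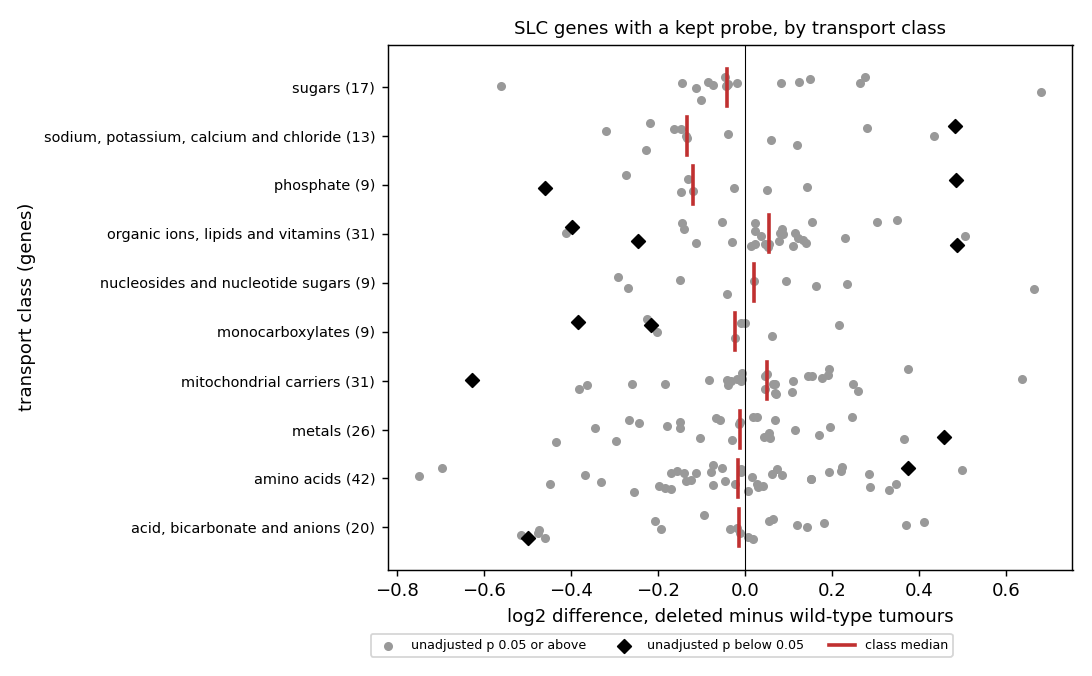
Log2 difference in intensity (DLG2-deleted minus DLG2 wild-type, x axis) of the 207 solute carrier genes with a kept probe, 1 point per gene, by transport class (y axis), with the median of each class as a red line and black diamonds for genes at an unadjusted limma p under 0.05. The class medians lie between -0.13 and 0.06, and single genes spread to both sides of 0 in every class.

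The leading carrier was SLC20A1, a sodium-driven phosphate importer that supplies phosphate to many cells, bone-forming cells among them. Its single probe was the 60-mer on chromosome 17 shown here because the smallest p among the carriers' chosen probes rests on it. It was listed at chr17:39987730-39987788 of canFam2, plus strand, and read in 1 forward frame without a stop codon. Gene structure at the probes (exon, intron or UTR) was not examined.
SLC20A1: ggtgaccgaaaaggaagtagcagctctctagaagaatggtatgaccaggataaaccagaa
SLC20A1 read 8.30, 8.32, 8.01 and 8.21 in DLG2-deleted tumours 1 to 4 and 7.58, 7.88 and 7.72 in DLG2 wild-type tumours 1 to 3. All 4 DLG2-deleted values lay above all 3 DLG2 wild-type values. The means were 8.21 ± 0.14 (SD, n = 4) and 7.72 ± 0.15 (SD, n = 3). The log2 difference was 0.48 with an SE of 0.12, or 1.40-fold (limma unadjusted p = 0.00546, adjusted p = 0.5005). The two-sided exact permutation p was 0.0571, the lowest value reachable with 35 ways to split 7 tumours, so that no single gene can pass 0.05 in it. Its relative SLC20A2, the other phosphate importer of this type, had means of 7.20 ± 0.04 (SD, n = 4) and 7.22 ± 0.16 (SD, n = 3), and its groups overlapped.

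Another 4 carriers were higher in DLG2-deleted tumours at an unadjusted p under 0.05. SLC7A1, the main importer of arginine and lysine, read 11.83, 11.71, 11.76 and 11.47 against 11.47, 11.19 and 11.30. The groups did not overlap, but the gap between DLG2-deleted tumour 4 and DLG2 wild-type tumour 1 was small. The difference was 0.38 with an SE of 0.12 (limma unadjusted p = 0.0192). SLC12A8, a member of the cation-chloride family, read 7.21, 7.46, 7.46 and 7.58 against 7.21, 6.93 and 6.69, with a difference of 0.48 and an SE of 0.15. Here too the lowest DLG2-deleted tumour and the highest DLG2 wild-type tumour nearly met. SLC39A14, which imports zinc and non-transferrin iron, read 7.85, 8.29, 7.63 and 8.10 against 7.66, 7.34 and 7.54, a difference of 0.46 with an SE of 0.18. Its groups overlapped. SLC10A3, an orphan of the bile acid family, read 10.06, 9.71, 10.12 and 9.92 against 9.29, 9.38 and 9.73, a difference of 0.49 with an SE of 0.15. Its groups overlapped in a single pair, DLG2-deleted tumour 2 and DLG2 wild-type tumour 3.

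On the other side 7 carriers were lower in DLG2-deleted tumours at this level. SLC25A17, the peroxisomal member of the mitochondrial carrier family, carries coenzyme A and related cofactors. Its chosen probe read 9.72, 9.40, 9.45 and 8.98 against 10.30, 9.86 and 9.89, so that every DLG2 wild-type tumour lay above every DLG2-deleted tumour. The difference was -0.63 with an SE of 0.20, or 1.55-fold lower (limma unadjusted p = 0.0168, adjusted p = 0.5834). SLC37A4, which moves glucose-6-phosphate into the endoplasmic reticulum, read 10.31, 10.38, 10.11 and 9.96 against 10.49, 10.62 and 10.84. Its difference was -0.46 with an SE of 0.14. SLC46A1, the proton-coupled folate importer, read 7.24, 7.37, 7.66 and 7.37 against 7.79, 7.73 and 7.91, with a difference of -0.40 and an SE of 0.12. Both genes had groups that did not overlap.

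The other carriers on the lower side were closer to the background of the array or overlapped between groups. SLC4A11, a borate and proton carrier of the bicarbonate family, read 7.07, 7.80, 7.09 and 7.06 against 7.65, 7.85 and 7.77. DLG2-deleted tumour 2 lay among the DLG2 wild-type tumours, and the other DLG2-deleted tumours lay together below them. SLC16A11, a monocarboxylate carrier, read 7.97, 8.24, 8.04 and 7.86 against 8.19, 8.32 and 8.72, and DLG2-deleted tumour 2 overlapped DLG2 wild-type tumour 1. SLC22A25, an organic anion carrier, had means of 6.79 ± 0.13 (SD, n = 4) and 7.04 ± 0.03 (SD, n = 3). A second kept probe of SLC22A25 differed by 0.017 with an SE of 0.082, so the lower value did not repeat. SLC16A12, a carrier of creatine and other small acids, was well above background in all 3 DLG2 wild-type tumours and in no DLG2-deleted tumour. The gene passed the filter only through the DLG2 wild-type group, so that it had to differ. With the normalization used here it was at least 1.16-fold lower in DLG2-deleted tumours. That bound is the bright group's mean against the higher of the dim probe's own signal and the lowest signal well above background on each array.

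**Figure D2:**
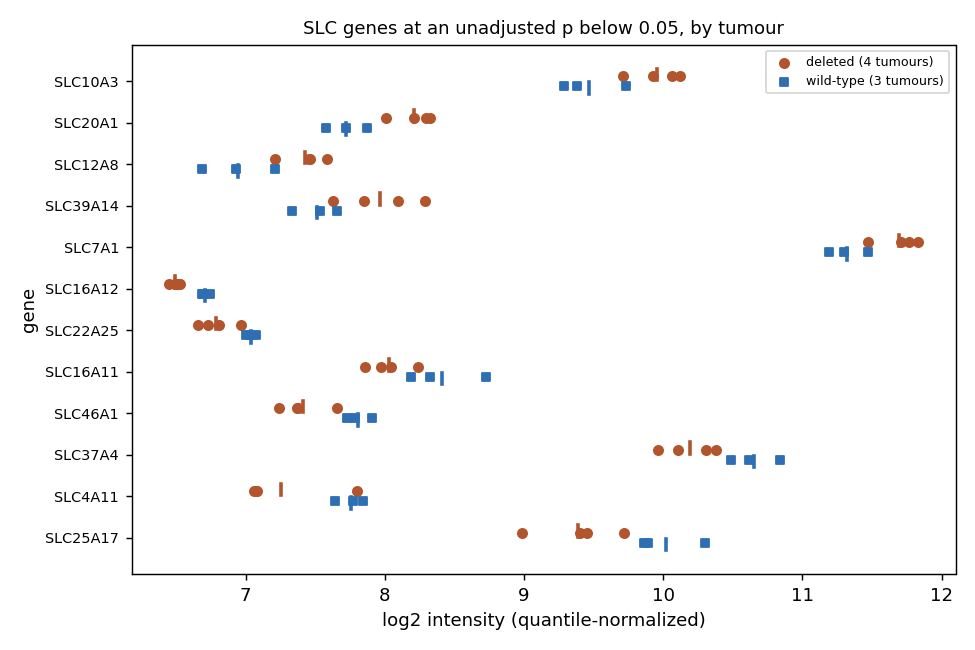
Log2 intensity (x axis) in each of the 7 tumours for the 12 carriers at an unadjusted limma p under 0.05, 1 row per gene (y axis), with circles for DLG2-deleted tumours, squares for DLG2 wild-type tumours and short vertical lines for the group means. SLC20A1 runs from 8.01 to 8.32 in the DLG2-deleted and from 7.58 to 7.88 in the DLG2 wild-type tumours, while SLC4A11 shows 1 DLG2-deleted tumour at 7.80 beside 3 near 7.07.

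The standing of these 12 genes moved with the arrays and the fit. The arrays of DLG2-deleted tumours 2 and 3 and DLG2 wild-type tumour 2 shared 1 of the 5 slides, and the other slides held 1 array each. With slide as a block, which rests on those 3 arrays, 5 carriers had an unadjusted p under 0.05 and 0 of the 12 were among them. SLC20A1 then differed by 0.29 (limma unadjusted p = 0.321) and SLC25A17 by -0.44 (limma unadjusted p = 0.1005). The files name no session, so the arrays were also split by the hour of image extraction, before noon or later, whatever the date. DLG2-deleted tumour 1 and DLG2 wild-type tumours 1 and 3 were the later ones. With this split, called session below, as a term, 9 of the 12 stayed under 0.05. Leaving out DLG2 wild-type tumour 3 left 7 carriers under 0.05, and 3 of the 12 (SLC20A1, SLC25A17 and SLC10A3) were among them. Leaving out DLG2 wild-type tumour 2 kept 5 of the 12, and leaving out any other single tumour kept 7 to 11. SLC16A12 and SLC22A25 turned to 0.60 and 0.41 with the 75th percentile scaling, and the other 10 kept their direction in every setting run. SLC24A2, SLC3A1 and SLC30A3, whose groups also stood apart, turned to 0.41, 0.45 and 0.11 with that scaling.

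Several genes were read by more than 1 probe, which repeats a measurement on the same RNA. Of 56 carriers with several kept probes, 37 had the same sign at all of them and 19 did not. SLC25A17 had 4 kept probes, none overlapping another by listed position. The differences from 5′ to 3′ along the listed strand were -0.38, -0.35, -0.63 and -0.49, and the groups did not overlap at the first 3. A pair of its probes read in a forward frame without a stop codon and are shown because they carry this repeat. The first lies at chr10:27522240-27522299 and the second is listed over chr10:27524721-27526510, wider than its 60 bases, both canFam2, plus strand.
SLC25A17 first: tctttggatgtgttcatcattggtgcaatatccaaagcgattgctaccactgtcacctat
SLC25A17 second: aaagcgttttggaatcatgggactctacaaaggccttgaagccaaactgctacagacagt
At the first of these SLC25A17 read 7.38, 7.51, 7.51 and 7.45 in DLG2-deleted and 7.94, 7.73 and 7.84 in DLG2 wild-type tumours, a difference of -0.38 with an SE of 0.092. At the second it read 8.22, 8.19, 8.31 and 8.17 against 8.78, 8.44 and 8.50, a difference of -0.35 with an SE of 0.11. The DLG2-deleted tumours stood closer together at both probes than at the chosen one.

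SLC7A1 was also higher at its second probe, by 0.29 with an SE of 0.11, but the probes share most of their bases and are not separate evidence. SLC39A14 was 0.37 higher at a second, separate probe where its groups did not overlap. SLC12A8 was 0.33 higher with an SE of 0.14 at its second probe. That probe overlaps the first in listed position, and the groups overlapped at it. SLC10A3 was 0.090 higher with an SE of 0.15 at its second probe, against 0.49 at the chosen one, so its difference did not repeat. SLC3A1, the heavy subunit of the cystine carrier, differed by -0.20 and -0.18 at a pair of probes, and the groups stood apart at both. SLC22A25, as given above, and SLC37A4 did not repeat. The chosen SLC37A4 probe, shown because its neighbour went the other way, was at chr5:17833069-17833128 (canFam2, plus strand).
SLC37A4: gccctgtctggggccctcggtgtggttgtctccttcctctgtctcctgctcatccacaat
The second SLC37A4 probe, at chr5:17836128-17836187, read 8.62, 7.55, 8.02 and 8.27 in DLG2-deleted and 7.46, 8.10 and 7.97 in DLG2 wild-type tumours. Its difference was 0.27 with an SE of 0.28, and the groups overlapped. SLC46A1 had 1 kept probe, on chromosome 9, listed over chr9:45971281-45973919 (canFam2, minus strand), which is printed because no other probe repeats its value.
SLC46A1: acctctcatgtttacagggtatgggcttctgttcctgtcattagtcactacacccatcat

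SLC38A1, a sodium-driven glutamine and alanine importer, split by probe. Both probes below read in a forward frame without a stop codon, and they are shown because their differences have opposite signs. The first is at chr27:11175390-11175449 and the second at chr27:11186433-11186492, canFam2, plus strand.
SLC38A1 first: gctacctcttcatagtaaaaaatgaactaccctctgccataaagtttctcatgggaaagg
SLC38A1 second: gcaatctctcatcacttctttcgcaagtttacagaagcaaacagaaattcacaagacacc
The first read 7.92, 8.62, 8.49 and 8.50 in DLG2-deleted and 8.61, 9.38 and 9.10 in DLG2 wild-type tumours, overlapping in a single pair. The difference was -0.65 with an SE of 0.24 (limma unadjusted p = 0.0319, adjusted p = 0.6484). The second read 8.69, 9.34, 9.57 and 9.51 against 9.00, 9.12 and 8.50, a difference of 0.40 with an SE of 0.26. Another probe close to the second differed by 0.33. The difference between the probes was not tested.

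**Figure D3:**
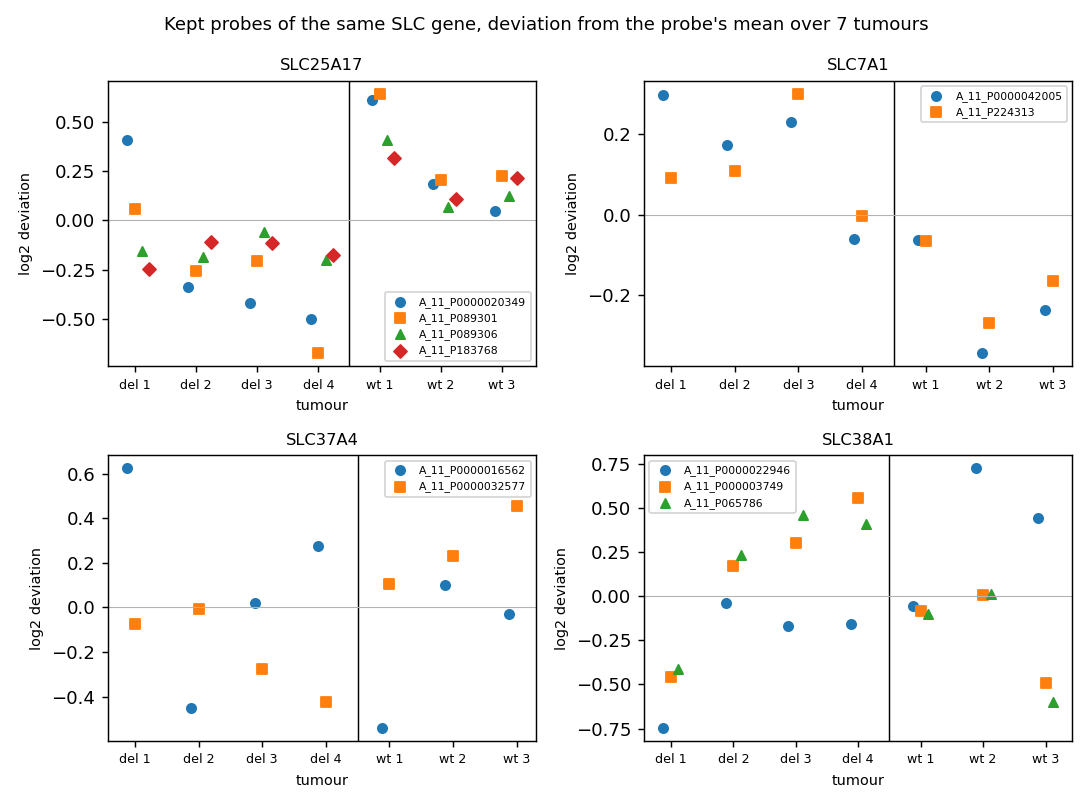
Log2 intensity minus the probe's mean over the 7 tumours (y axis) for each kept probe of SLC25A17, SLC7A1, SLC37A4 and SLC38A1, 1 colour and marker shape per probe, by tumour (x axis; del, DLG2-deleted, and wt, DLG2 wild-type). The 4 SLC25A17 probes differ by -0.35 to -0.63 between the groups, while the SLC37A4 and SLC38A1 probes go opposite ways.

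Among the amino acid carriers, 42 of 50 genes on the array had a kept probe, and 19 were higher and 23 lower in DLG2-deleted tumours with a class median of -0.015. SLC7A5 and SLC3A2 are the light and heavy chains of the exchanger that imports leucine and other large neutral amino acids. SLC7A5 had means of 9.34 ± 0.15 (SD, n = 4) and 9.31 ± 0.15 (SD, n = 3), and its heavy chain SLC3A2 had 7.54 ± 0.20 (SD, n = 4) and 7.46 ± 0.11 (SD, n = 3). SLC7A11, the cystine importer that supplies glutathione synthesis, ran from 6.50 to 6.75 over the 7 tumours. SLC1A5, a glutamine importer, read 8.78 in DLG2-deleted tumour 1 and 9.73 to 9.87 in the other DLG2-deleted tumours, against 9.25 to 9.58. SLC38A2, a system A importer that responds to amino acid supply, differed by 0.22 with an SE of 0.18. At this chosen probe its values ran from 12.37 to 13.18, and without DLG2 wild-type tumour 3 it differed by 0.049. At a second, less bright probe SLC38A2 was 0.51 higher with an SE of 0.14 (limma unadjusted p = 0.0077, adjusted p = 0.5099). The groups did not overlap at that probe.

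By family, the SLC7 carriers had a median of 0.023 (8 genes) and the SLC38 carriers 0.052 (8 genes, 6 of them higher). The SLC6 carriers of neurotransmitters, creatine and taurine had 2 genes higher and 8 lower, with a median of -0.049. The SLC1 glutamate family had the widest spread between tumours of the 27 families with at least 3 kept genes, with a median SD of 0.64 over its 5 genes and a median difference of -0.16. In it SLC1A3, a glutamate importer, read 11.08, 10.55, 10.00 and 10.76 against 11.10, 10.79 and 12.16. The difference was -0.75 with an SE of 0.38, and DLG2 wild-type tumour 3 lay above every other tumour. Without that tumour the difference was -0.34. The peptide carriers of SLC15 had a median of -0.26 over 3 genes. The SLC43 carriers of large neutral amino acids had 0.28 over 3 genes, led by SLC43A3, which handles purine bases, at 0.50 with an SE of 0.31 (0.32 without DLG2-deleted tumour 4 or without DLG2 wild-type tumour 1). The small families SLC3 and SLC36 had medians of -0.062 and -0.22 over 2 genes each, and SLC32A1 alone in its family differed by 0.0069.

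Sugar carriers had 17 kept genes of 24, with 6 higher, 11 lower and a median of -0.041. The facilitative hexose carriers of SLC2 had a median of -0.043 over 8 genes, the sodium-driven SLC5 carriers -0.018 over 5, and the SLC45 family -0.039 over 3. SLC50A1, the one SWEET-type carrier, differed by -0.11. SLC2A3, a high-affinity glucose importer, differed by 0.12 with an SE of 0.10. A dimmer SLC2A3 probe was well above background in 3 DLG2-deleted and in 0 DLG2 wild-type tumours. This probe passed the filter only through the DLG2-deleted tumours, so that its direction was set in advance. It differed by 0.26 with an SE of 0.099, and its values ran from 6.43 to 6.90. The insulin-driven SLC2A4 and the liver-type SLC2A2 were well above background on 0 arrays.

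The monocarboxylate carriers, which move lactate, pyruvate and related acids, had 2 genes higher and 7 lower out of 9 kept, with a median of -0.022. The 7 include SLC16A12, which passed the filter only through the DLG2 wild-type group, so that its direction was set in advance. SLC16A3, the lactate exporter of glycolytic cells, read 7.13, 8.48, 8.25 and 7.23 in DLG2-deleted and 8.34, 7.78 and 7.19 in DLG2 wild-type tumours. Both groups held high and low tumours, and both means were 7.77. SLC16A1, which carries lactate either way, differed by 0.22 with an SE of 0.26.

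The acid, bicarbonate and anion carriers had a median of -0.014 over 20 genes, 9 higher and 11 lower. Sodium-proton exchangers of SLC9 had a median of -0.012 (5 genes), bicarbonate carriers of SLC4 -0.068 (6 genes), anion exchangers of SLC26 -0.026 (6 genes) and sulphate and carboxylate carriers of SLC13 0.018 (3 genes). SLC4A2, the chloride-bicarbonate exchanger that osteoclasts use, read 7.14, 7.59, 7.78 and 7.79 against 7.74, 7.23 and 9.17. DLG2 wild-type tumour 3 was the high one. The osteoclast markers had a kept probe for 5 of 8 genes, without OSCAR, DCSTAMP and OCSTAMP. Their median deviation ran from -1.44 to 0.77 in the DLG2-deleted and from -0.85 to 2.77 in the DLG2 wild-type tumours, and DLG2 wild-type tumour 3 was the highest of the 7. The part of these cells in the SLC4A2 values was not tested. SLC26A2, the sulphate importer needed for cartilage matrix, ran from 7.38 to 8.08 in the DLG2-deleted and from 7.70 to 7.75 in the DLG2 wild-type tumours. Within SLC13, SLC13A2 differed by -0.52 with an SE of 0.26, with DLG2 wild-type tumour 3 at 7.91 and the other tumours at 6.65 to 7.09. Without DLG2 wild-type tumour 3 it differed by -0.19.

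Cation-chloride and calcium carriers gave the lowest class median of the 10 classes, -0.13 over 13 genes, with 5 higher and 8 lower. Within it the SLC12 family had a median of 0.040 over 8 genes. SLC12A8 and SLC12A2, 2 of the 8, were higher with groups that did not overlap, against 4.31% of all genes. In both the nearest values of the groups nearly met, and the count was not tested. SLC12A2, the sodium-potassium-chloride importer that sets cell volume, read 8.01, 8.78, 8.42 and 8.06 against 8.00, 7.96 and 7.69, a difference of 0.44 with an SE of 0.21 (0.28 without DLG2-deleted tumour 2). The sodium-calcium exchangers were on the other side, with SLC8A1 at -0.32, SLC24A2 at -0.22 and SLC24A5 at -0.23, and only SLC24A2 of these had groups that did not overlap. SLC8A1 differed by -0.059 without DLG2 wild-type tumour 2. The magnesium carriers SLC41A2 and SLC41A3 differed by 0.06 and -0.15.

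The phosphate class had 3 genes higher and 6 lower of 9, with a median of -0.12. SLC37, the sugar phosphate exchangers, had a median of -0.13 over 3 genes, and SLC17, with vesicular glutamate carriers and sialin, -0.15 over 3. SLC17A7, a vesicular glutamate carrier of neurons, was well above background in all 3 DLG2 wild-type and in no DLG2-deleted tumour. The gene passed the filter only through the group in which it was bright, so that its direction was set in advance. DLG2 wild-type tumour 3 at 6.58 lay just below DLG2-deleted tumour 1 at 6.59, so the groups overlapped. Its difference was -0.27 with an SE of 0.12, but turned to 0.50 with the 75th percentile scaling. SLC34A2, the type II phosphate importer of lung and gut, differed by -0.12. SLC34A1, its kidney counterpart, was well above background on 0 arrays.

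Metal carriers had 26 kept genes of 27, with 12 higher, 14 lower and a median of -0.012. All 14 zinc importers of SLC39 had a kept probe, 7 on each side of 0, with a median of 0.0034. SLC39A14 led on one side, and on the other SLC39A10 read 12.10, 11.33, 11.36 and 11.10 against 11.80, 11.79 and 12.12. DLG2-deleted tumour 1 lay with the DLG2 wild-type tumours in that gene. SLC39A4, the zinc importer of the gut, ran from 8.69 to 8.72 in the DLG2-deleted and from 8.46 to 8.61 in the DLG2 wild-type tumours, a difference of 0.17 with an SE of 0.081. The zinc exporters of SLC30 had a median of 0.028 over 7 genes, and SLC30A3 had groups that did not overlap at -0.27 with an SE of 0.13 (-0.12 without DLG2 wild-type tumour 3). The copper importers SLC31A1 and SLC31A2 differed by 0.25 and -0.01. SLC11A2 and SLC40A1, which import and export iron, differed by -0.15 and -0.34. Without DLG2-deleted tumour 4 SLC40A1 differed by -0.088, and without DLG2-deleted tumour 2 by -0.70.

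Of 35 mitochondrial carriers of SLC25, 31 had a kept probe, the largest family on the array. With 18 higher and 13 lower the median was 0.052. SLC25A17 was lower, as above, and SLC25A24, a calcium-regulated ATP-Mg carrier, was 0.26 higher with an SE of 0.11 and groups that did not overlap. The ADP/ATP exchangers went opposite ways. SLC25A6 read 14.88, 13.71, 13.92 and 14.04 against 13.18, 13.17 and 14.15, a difference of 0.64 with an SE of 0.36 (0.39 without DLG2-deleted tumour 1 and 0.96 without DLG2 wild-type tumour 3). SLC25A4 differed by -0.36. The mitochondrial phosphate carrier SLC25A3 differed by -0.26, and neither of these last had groups that stood apart. None of the 31 was called.

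Nucleoside and nucleotide sugar carriers had a median of 0.022 over 9 genes, with 5 higher and 4 lower. SLC29A4, an amine and nucleoside carrier, was well above background in the 3 DLG2 wild-type tumours and in no DLG2-deleted tumour. It passed the filter only through the group in which it was bright, so that its direction was set in advance. The groups overlapped, with DLG2-deleted tumour 1 at 6.67 and DLG2 wild-type tumour 2 at 6.59. Its difference was -0.15 with an SE of 0.11, and turned to 0.58 with the 75th percentile scaling. SLC35A5, a Golgi nucleotide sugar carrier, read 7.22, 7.61, 7.20 and 7.26 against 7.59, 7.63 and 7.62, and DLG2-deleted tumour 2 lay within the DLG2 wild-type range. Its other probes differed by -0.35 and -0.12, the first of them sharing most bases with the chosen one. SLC33A1, the acetyl-CoA carrier, differed by 0.09. SLC28A3, the one concentrative nucleoside carrier on the array, was well above background on 0 arrays, so its family has no summary.

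The class of organic ions, lipids and vitamins had the largest surplus of one direction by count, 23 higher and 8 lower of 31 genes, with a median of 0.055. SLC10 had 3 of 3 higher (median 0.14), SLC22 6 of 9 (0.055), SLC27, the fatty acid carriers, 4 of 5 (0.046) and SLC44, the choline carriers, 2 of 3 (0.024). SLC46 had a median of 0.082 over 3 genes although SLC46A1 itself was lower. SLC22A3, an organic cation carrier, read 6.77, 6.56, 6.91 and 6.99 against 6.86, 7.19 and 7.61, a difference of -0.41 with an SE of 0.20 (-0.22 without DLG2 wild-type tumour 3). SLC22A23, an orphan of the same family, was 0.12 higher with an SE of 0.090 and groups that did not overlap. SLC14A1, a urea carrier, read 7.49, 7.18, 8.24 and 6.49 against 7.07, 6.93 and 6.52, and its groups overlapped. SLC19A1, which carries reduced folate and methotrexate, had means of 7.33 ± 0.34 (SD, n = 4) and 7.36 ± 0.15 (SD, n = 3). The remaining small families held SLC14A2 at 0.09, SLC18A3 at 0.23, SLC23A2 at 0.04, SLC23A3 at -0.14, SLC47A2 at 0.05 and SLC48A1 at 0.01. The direction of small medians depends on the processing. Of the 27 families with at least 3 kept genes, 23 crossed 0 in at least 1 setting, and SLC10, SLC12, SLC22 and SLC27 stayed above 0 in all of them. Normexp at 75th percentile scaling put the median of all carriers at 0.41, a shift that moves families below 0 toward crossing. The count of crossings is therefore not an even measure for both directions. SLC1, SLC15, SLC17 and SLC37 were below 0 in 22 of 23 settings.

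**Figure D4:**
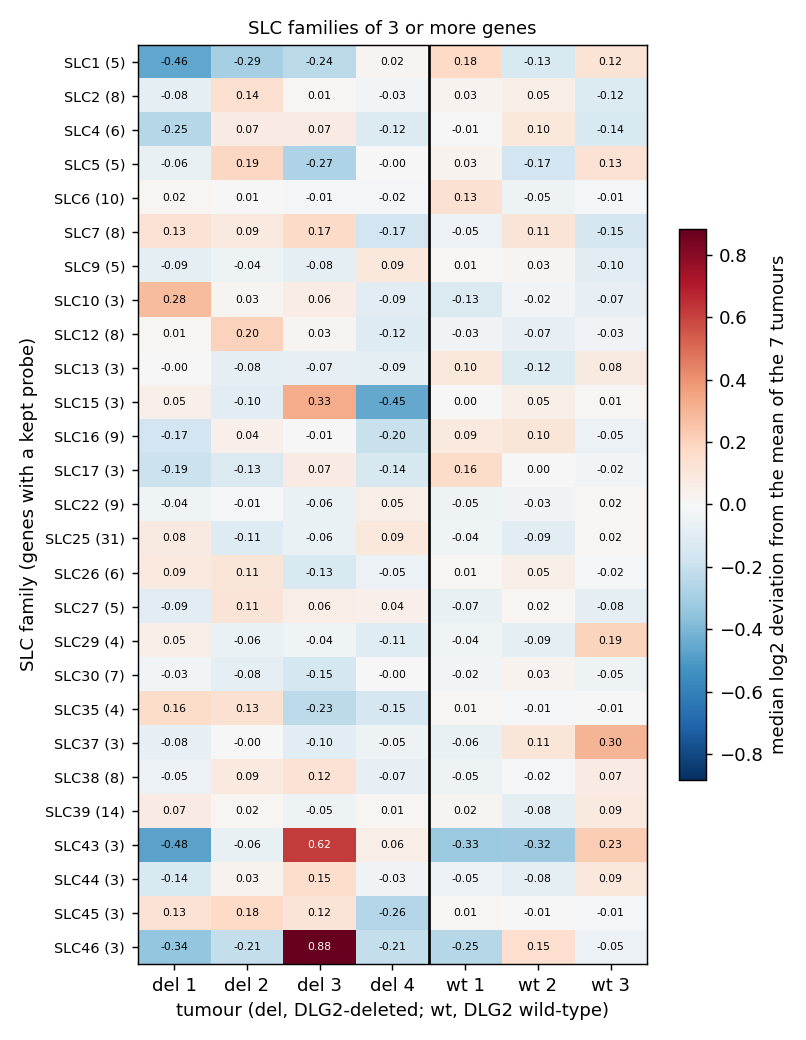
Median deviation of each solute carrier family from its genes' means (log2, colour) in each of the 7 tumours (columns), for the 27 families with at least 3 kept genes (rows). SLC46 in DLG2-deleted tumour 3 (0.88) and SLC43 in the same tumour (0.62) are the highest values, and SLC43 in DLG2-deleted tumour 1 (-0.48) is the lowest.

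Some carriers varied widely between tumours of both groups. The 10 carriers of largest SD over the 7 tumours had SDs of 0.67 to 1.24, and the groups overlapped in all 10. SLC11A1, the phagosomal metal carrier of macrophages, had the largest SD. It read 10.34, 12.72, 12.95 and 10.35 in DLG2-deleted tumours 1 to 4 and 11.43, 13.18 and 10.88 in DLG2 wild-type tumours 1 to 3, a range of 7.19-fold. DLG2-deleted tumours 2 and 3 and DLG2 wild-type tumour 2 were the high ones, and a second probe put the same 3 tumours on top. The macrophage markers had a kept probe for 4 of 6 genes, without MARCO and CD14. Their median deviation was -1.08, -0.07, 1.28 and -0.59 in the DLG2-deleted and -0.29, 0.70 and 0.21 in the DLG2 wild-type tumours. CD163 and AIF1 read highest in DLG2-deleted tumour 3, followed by DLG2 wild-type tumour 2. CD68 and CSF1R read highest in DLG2 wild-type tumour 3, where SLC11A1 was among the lower values. The part of macrophages in the SLC11A1 values was not tested. SLC40A1, which exports iron from macrophages and other cells, followed another order, with DLG2-deleted tumour 2 highest at 10.29 and DLG2-deleted tumour 4 lowest at 8.44.

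SLC15A4, an endolysosomal histidine and peptide carrier of immune cells, was set by 1 tumour. It read 9.87 in DLG2-deleted tumour 4, 12.43 to 12.74 in the other DLG2-deleted tumours and 11.93 to 12.99 in the DLG2 wild-type tumours. Its second probe was also lowest in that tumour, at 8.13 against 9.11 to 10.11. The adipocyte markers, with 5 of 6 kept and FABP4 without a kept probe, had a median deviation of 3.12 in the same tumour and -0.61 to -0.28 in the others. LEP, among the 5, went the other way, at 7.96 in DLG2-deleted tumour 4 and 8.00 to 8.26 in the others. The part of adipocytes in the SLC15A4 values was not tested. Without DLG2-deleted tumour 4 the SLC15A4 difference turned from -0.45 to 0.23.

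SLC6A11, a GABA importer, read 13.13, 11.16, 14.06 and 14.06 against 14.00, 12.88 and 11.77, a range of 7.47-fold within which both groups held low and high tumours. SLC1A1, a glutamate and cysteine importer, ran from 6.86 to 9.87 in the DLG2-deleted and from 6.50 to 8.44 in the DLG2 wild-type tumours. SLC29A1, the equilibrative nucleoside carrier that also takes up gemcitabine, read 12.43 in DLG2-deleted tumour 1 and 12.34 in DLG2 wild-type tumour 3, with 9.79 to 11.41 in the other tumours. Its second probe was also high in these, beside DLG2-deleted tumour 4. SLC5A6, the biotin and pantothenate importer, was highest in DLG2-deleted tumours 2 and 4 and DLG2 wild-type tumour 3, between 10.65 and 11.01, and its second probe had the same 3 on top. Urate and fructose carriers varied too, with SLC2A9 at 7.42 to 9.76 and SLC2A5 at 6.72 to 9.18. SLC2A9 was lowest in DLG2-deleted tumour 4, and SLC2A5 was lowest in DLG2-deleted tumour 1.

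SLC36A4, a lysosomal proline and tryptophan carrier, is the one member on chromosome 21, the chromosome of DLG2, and its probe is shown for that reason. It lies at chr21:10517540-10517599 (canFam2, plus strand).
SLC36A4: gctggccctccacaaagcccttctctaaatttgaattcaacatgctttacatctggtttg
SLC36A4 read 13.02, 10.83, 13.39 and 13.51 in DLG2-deleted and 13.86, 12.37 and 12.82 in DLG2 wild-type tumours. DLG2-deleted tumour 2 was the low one, and the others overlapped between groups. The difference was -0.33 with an SE of 0.71 (limma adjusted p = 0.959).

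**Figure D5:**
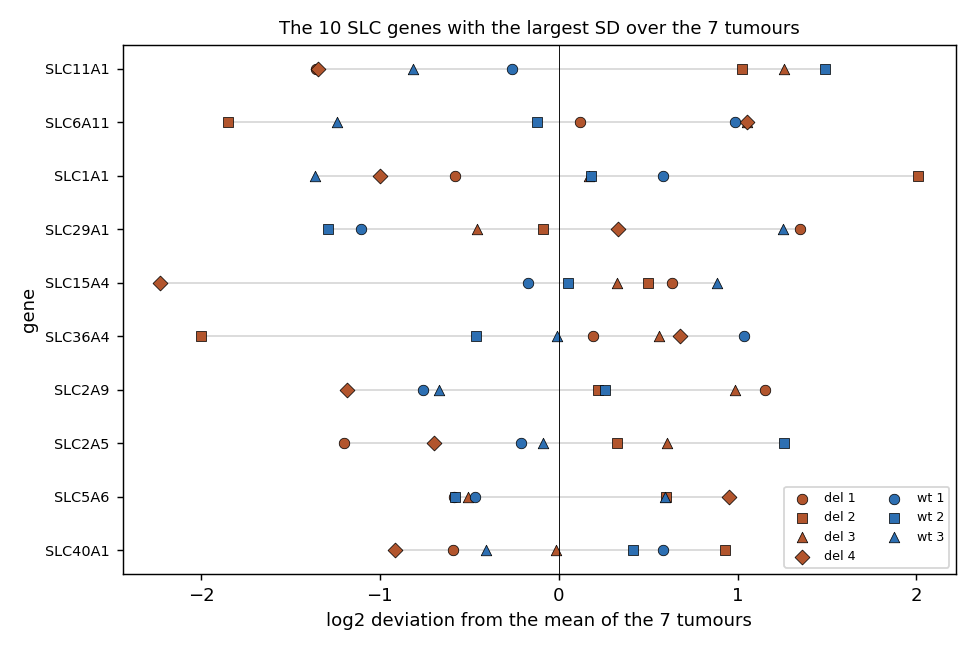
Log2 deviation from the gene's mean over the 7 tumours (x axis) for the 10 carriers of largest SD, 1 row per gene (y axis), with 1 point per tumour, colour for the group and shape for the tumour, and a grey line over the range. DLG2-deleted tumour 4 stands alone at the low end of SLC15A4, and the colours of the groups are mixed in every row.

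High and low values were not spread evenly over the tumours. DLG2-deleted tumour 1 held the lowest value of 50 carriers, or 24.2%, against 19.4% of all genes. DLG2 wild-type tumour 3 held the highest value of 40 carriers, or 19.3%, against 14.2% of all genes. DLG2-deleted tumour 2 held the highest of 42 carriers (20.3%, against 18%). These shares are descriptions of single tumours.

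The difference by DLG2 status was also asked within the sex labels. In a limma interaction fit, in which 1 DLG2 wild-type tumour has the label MC, 0 of 207 carriers had an adjusted p under 0.1, with 0% of all genes, and 11 (5.31%) had an unadjusted p under 0.05, against 8.81% of all genes.

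Of the 207 kept carriers, 180 were well above background on all 7 arrays and 27 on 3 to 6. Among the 48 without a kept probe, 31 were well above background on 0 arrays and 17 on 1 or 2. The 31 included kidney and gut carriers such as SLC12A3, SLC22A2, SLC26A3 and SLC5A8, the red cell anion exchanger SLC4A1, the islet zinc carrier SLC30A8 and the amine carriers SLC6A2 and SLC18A1. The 17 included the serotonin and dopamine importers SLC6A4 and SLC6A3, the carnitine importer SLC22A5 and the iodide importer SLC5A5. A value below background on these arrays sets only a bound and does not show that the RNA was absent. By sequence the carriers' kept probes were like the array, with a median of 45% G and C in their own 283 and in all 32309 kept probes.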

How the data were processed

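The authors labelled total RNA of 7 canine osteosarcomas with Cy3 and hybridised it to Agilent Canine V2 arrays. The deposited files hold spot intensity and local background intensity on a linear scale from Agilent Feature Extraction 10.7.3.1, and a processed intensity that this program corrected for background. The study names multi-array normalization and a batch correction, with the batch not given in the sources used here. Probe names and canFam2 coordinates are those of the files.

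Mean spot intensity was background-corrected by normexp (offset 50) in R 4.3.3 with limma 3.58.1. Control spots were then dropped, values were put on the log2 scale and 144 values marked as outliers were left out. Quantile normalization followed. Probes well above background on at least 3 arrays were kept, 32309 of 43603. A kept probe may owe this to the group in which it is bright. Groups were compared by limma (lmFit, eBayes, two-sided) over all kept probes, Benjamini-Hochberg adjusted over all of them, with samples grouped by the genotype label. Calls needed p under 0.05 with adjusted p under 0.1, the thresholds of the study's methods. The script was tested on simulated data. Named genes were the 15 of smallest p with groups apart, a list of 18 known carriers (16 with a kept probe), the 10 of largest SD, those detected in 1 group only, and the extremes of each class. SLC10A3 and SLC4A11 were added because they belong to the count of 12, and SLC38A1 and genes given by their difference alone were chosen after their values were seen. The members, lists and classes were chosen with earlier results of these data known. Of the 255 symbols, 249 are in the RefSeq table of UU_Cfam_GSD_1.0. Each group has separate animals. Figures used matplotlib 3.10.9. Alternatives covered background, scaling, filter, test, slide, session, sex label, age, probe choice and left-out tumours.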

Additional observations from a re-analysis of the deposited data

Results flagged for a closer look

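Single tumours stood far from the others of the 4 DLG2-deleted tumours in 6 of the 80 gene or family values looked at. A rate of 1 in 20 would give about 4, but only for independent, normally distributed values not chosen from these data. Some of these genes were named for their spread or difference, and the family medians reuse genes. The count of 6 therefore has no fair reference here. The measure is the gap to the nearest tumour over the range of the 4, read against Dixon's critical value. SLC15A4 was low in DLG2-deleted tumour 4 (ratio 0.892), at 9.87 against 12.43 to 12.74. SLC1A5 was low in DLG2-deleted tumour 1 (0.872), at 8.78 against 9.73 to 9.87. SLC35A5 was high in DLG2-deleted tumour 2 (0.838), at 7.61 against 7.20 to 7.26, and SLC4A11 was high in the same tumour (0.965), at 7.80 against 7.06 to 7.09. The SLC45 family median was low in DLG2-deleted tumour 4 (0.862), at -0.26 against 0.12 to 0.18. The SLC46 family median was high in DLG2-deleted tumour 3 (0.891), at 0.88 against -0.34 to -0.21, and rested there on SLC46A2 at 8.68 and SLC46A3 at 8.22. The DLG2 wild-type group has 3 tumours and was not looked at in this way.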

How the results depend on the processing

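No carrier was called in any of the settings run, and none was at an adjusted p under 0.05 or under 0.1 alone. The count of carriers at an unadjusted p under 0.05, 12 as reported, was 19 with the processed intensity at 75th percentile scaling (9.18% of carriers, 6.36% of all genes), 4 with normexp at 75th percentile scaling (1.93%, 3.71%), 19 with no filter (7.45%, 7.76%), 20 with array weights (9.66%, 14.9%) and 5 with slide as a block (2.42%, 4.49%). With a tumour left out it ran from 7 (without DLG2 wild-type tumour 3) to 17 (without DLG2-deleted tumour 1). The median difference of the carriers was -0.13, 0.41 and 0.030 under the processed intensity at 75th percentile scaling, normexp at 75th percentile scaling and the slide block, and ran from -0.018 to 0.012 with a tumour left out. Of 53 named genes, 30 changed sign in at least 1 setting. With normexp at 75th percentile scaling, where the median of all genes stood at 0.23, these were SLC13A2 (0.045), SLC16A12 (0.60), SLC16A3 (0.46), SLC17A7 (0.50), SLC19A1 (0.46), SLC20A2 (0.47), SLC22A25 (0.41), SLC22A3 (0.15), SLC24A2 (0.41), SLC26A2 (0.22), SLC29A4 (0.58), SLC30A3 (0.11), SLC35A5 (0.11), SLC38A2 (-0.10), SLC3A1 (0.45), SLC6A11 (-0.10) and SLC7A5 (-0.15). With the slide block they were SLC15A4 (0.36), SLC16A1 (-0.16), SLC16A3 (0.59), SLC19A1 (0.086), SLC20A2 (0.15), SLC26A2 (0.018), SLC29A4 (0.011), SLC40A1 (0.043), SLC4A2 (0.45), SLC6A11 (-0.28), SLC7A11 (-0.087) and SLC9A7 (-0.0021). Age as a covariate turned SLC16A3 (0.50), SLC19A1 (0.10), SLC1A5 (-0.062), SLC26A2 (0.21), SLC29A1 (-0.039) and SLC40A1 (0.34). Array weights turned SLC1A1 (-0.00077), SLC20A2 (0.018), SLC6A11 (-0.27) and SLC7A11 (-0.0010). The session term turned SLC1A5 (-0.032), SLC20A2 (0.0090), SLC26A2 (0.0086), SLC3A2 (-0.048) and SLC7A11 (-0.015). The sex label turned SLC16A3 (0.074), averaging DLG2 wild-type tumours 1 and 2 turned SLC16A3 (0.14) and SLC19A1 (0.0022), and SLC7A11 was -0.34 and -0.12 with the processed intensity at 75th percentile scaling and quantile normalization. With a tumour left out, differences that crossed 0 ran from -0.72 to 0.43 for SLC11A1, -0.72 to 0.23 for SLC15A4, -0.057 to 0.38 for SLC16A1, -0.29 to 0.29 for SLC16A3, -0.17 to 0.086 for SLC19A1, -0.27 to 0.74 for SLC1A1, -0.10 to 0.052 for SLC20A2, -0.16 to 0.069 for SLC26A2, -0.65 to 0.29 for SLC36A4, -0.88 to 0.090 for SLC4A2, -0.014 to 0.64 for SLC5A6, -0.34 to 0.87 for SLC6A11, -0.033 to 0.084 for SLC7A11 and -0.047 to 0.11 for SLC7A5. The causes were not tested. No paired analysis was possible because the tumours come from separate dogs and their numbers within a group only name them. The dim carriers are limited by their closeness to background.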
